A study of Arabidopsis thaliana with 16 samples.

Results

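STZ, WRKY6 and WRKY53 are 3 stress-related transcription factor genes of Arabidopsis, taken by symbol from the platform annotation of the ATH1 array. They are 3 of 13356 genes with a named probe set, and 1 probe set stands for each. STZ, also called ZAT10, has the locus code AT1G27730, WRKY6 has AT1G62300 and WRKY53 has AT4G23810. Whole seedlings of the Columbia ecotype, 14 days old and grown on MS medium with 16 h of light and 8 h of dark, were kept for 3 h in 1 of 4 solutions, and each hybridization began with 500 ng of total RNA. The solutions were 25 µM methyl viologen (MV, also known as paraquat, which diverts electrons of photosystem I to oxygen), 200 mM NaCl, 100 µM of the auxin IAA (indole-3-acetic acid), and water as the control. A line overexpressing a glutaredoxin (OsGRX8, a rice gene) and the wild type were each treated with all 4, giving 8 groups with 2 arrays each. The submitters call the 2 arrays of a group biological replicates. The labels used here name neither the transgene's promoter nor how many lines were used, and the rice transcript was not analysed here.

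STZ encodes a small nuclear protein with a pair of C2H2 zinc fingers and an EAR motif, through which such proteins repress transcription. It was first known for raising the salt tolerance of yeast, and in plants it is a marker of oxidative, light, salt, cold and wounding stress. WRKY proteins bind W-box elements in promoters. WRKY6 acts in senescence, defence and phosphate transport. WRKY53 is an early regulator of leaf senescence and responds to hydrogen peroxide. Superoxide made under MV is turned into hydrogen peroxide in the chloroplast, while NaCl acts as an osmotic and an ionic stress.

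Values are log2 signals after robust multi-array averaging (RMA), so a difference of 1 is a doubling of signal. Levels of different probe sets are not comparable with each other, and each test sets a gene only against itself in other groups. Where a signal is set beside that of a control probe set or of marker genes, this is only a rough guide. The 2 arrays of a group correlated at 0.966 to 0.994 across 22746 probe sets, and array medians lay between 2.94 and 3.20. The actin control, a check of RNA integrity, had a 3′ minus 5′ difference of 4.43 on IAA replicate 2 of the overexpression line and of 6.1 on that of the wild type, against 1.13 to 2.57 on the other 14 arrays. Of 8 root genes that were looked for, 3 had a named probe set. Over the 16 arrays PYK10 had 8.62 to 9.69, EXPA7 1.14 to 2.30 and EXPA18 1.15 to 2.57. On the same arrays the pollen gene AMS had 0.889 to 1.41 and the seed gene OLEO3 0.956 to 1.86. None of the 8 shoot marker genes that were looked for has a named probe set.

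The 3 genes fell into 2 patterns. STZ and WRKY6 were about 4-fold higher under MV than under NaCl in both lines and did not pass the test for NaCl against water, whereas WRKY53 gave no call between MV and NaCl and rose against water under each, over both lines. Neither the difference between the lines nor the difference between their responses passed the test for any of the 3.

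STZ had 8.86 and 9.34 in the overexpression line under MV, against 6.95 and 6.51 under NaCl. The wild type had 9.12 and 9.20 under MV, against 7.01 and 7.49 under NaCl. The 4 MV arrays were thus the highest of all 16, and the next array, overexpression line IAA replicate 1, had 7.51. The remaining STZ values were 7.51 and 6.25 in the overexpression line and 6.69 and 6.1 in the wild type under IAA, and 7.32 and 7.22 in the overexpression line and 7.17 and 7.22 in the wild type in water. Water gave the narrowest range of the 4 conditions, and the IAA arrays the widest.

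WRKY6, whose product activates receptor kinase and defence genes and represses the phosphate exporter gene PHO1, followed the same order between MV and the rest. It had 7.44 and 7.54 in the overexpression line under MV, against 5.63 and 5.31 under NaCl. The wild type had 8.01 and 7.59 under MV, against 5.93 and 5.40 under NaCl. No array outside MV exceeded 6.25, which was again overexpression line IAA replicate 1. The second IAA array of that line had 5.61, and the wild type had 5.60 and 5.03 under IAA. In water WRKY6 had 6.20 and 5.88 in the overexpression line and 6.0 and 5.68 in the wild type, within the range of the IAA arrays.

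WRKY53 was distributed differently. It had 3.8 and 5.03 in the overexpression line under MV, against 4.56 and 3.82 under NaCl, so the MV and NaCl arrays overlapped. In the wild type it had 4.90 and 5.01 under MV, against 5.04 and 5.0 under NaCl, the tightest pairs of this gene. Under IAA it had 3.30 and 3.43 in the overexpression line and 3.27 and 4.23 in the wild type, and in water 3.57 and 3.76 in the overexpression line and 3.28 and 3.71 in the wild type. All 4 MV and all 4 NaCl arrays were above all 4 water arrays. The lowest MV array was so by little: 3.8 against 3.76 on the highest water array. The share of all probe sets with arrays so separated was not counted, here or in any other comparison.

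**Figure D1:**
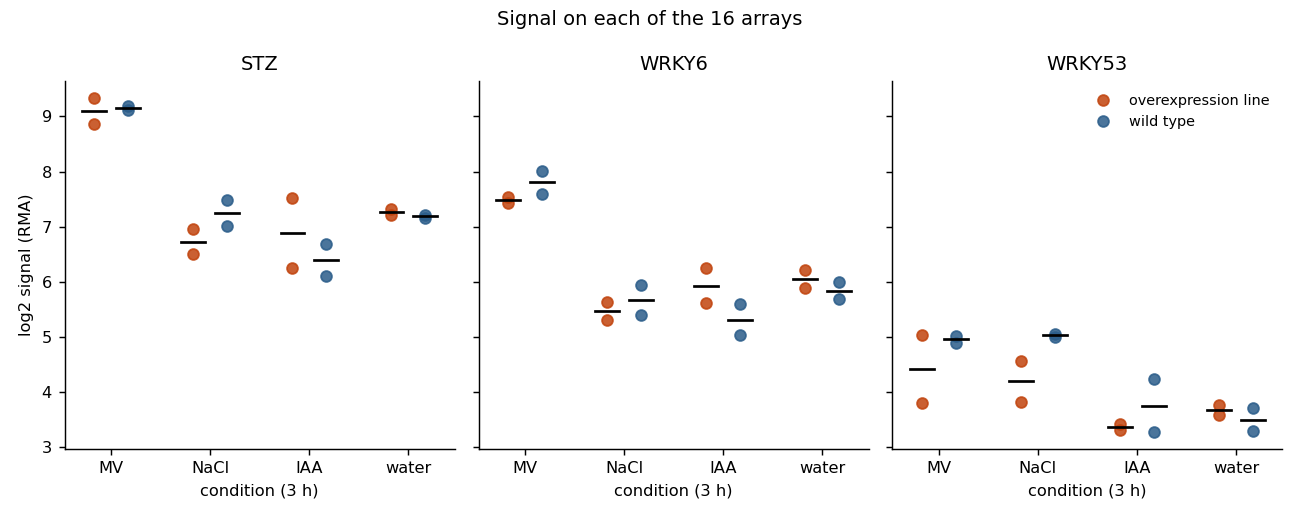
Log2 RMA signal (vertical axis) of STZ, WRKY6 and WRKY53 on each of the 16 arrays, by condition, with the overexpression line left of the wild type. Points are arrays and bars are the means of 2 arrays. STZ and WRKY6 stand apart under MV, with every MV array at or above 8.86 for STZ and 7.44 for WRKY6, while WRKY53 lies at or above 4.90 on the wild type arrays under both MV and NaCl.

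Ordered by group mean, the MV groups of STZ were on top, with 9.1 for the overexpression line and 9.16 for the wild type and overlapping arrays. A gap of 1.83 separated them from 7.27 in the overexpression line in water. Below that gap came wild type NaCl (7.25), wild type water (7.19), overexpression line IAA (6.88), overexpression line NaCl (6.73) and wild type IAA (6.40), and the arrays of each group overlapped those of the next. WRKY6 also had both MV groups on top, 7.49 for the overexpression line and 7.8 for the wild type, whose arrays did not overlap, with no call in the test of the lines. A gap of 1.45 separated them from the other 6 groups, which lay between 5.31 and 6.04 with overlapping neighbours. For WRKY53 the order was wild type NaCl (5.02), wild type MV (4.95), overexpression line MV (4.42) and overexpression line NaCl (4.19), then the IAA and water groups between 3.36 and 3.75. No pair of neighbours in that order was free of overlap, so its sequence is not resolved beyond the spread of the arrays.

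MV was then set directly against NaCl, which compares the redox agent with the salt stress without the shared water arrays. STZ was higher under MV by 2.14 ± 0.24 over both lines (SE, 4.40-fold, 95% interval 1.61 to 2.67 on the log2 scale, limma, adjusted p = 2.17e-05). WRKY6 was higher by 2.08 ± 0.19 (4.22-fold, 1.66 to 2.50, limma, adjusted p = 4.06e-06). Over all tested probe sets, 30.2% passed this comparison, and STZ and WRKY6 held places 304 and 332 among its increases. The median of all probe sets was -0.01.

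WRKY53 differed between MV and NaCl by 0.08 ± 0.27 over both lines (95% interval -0.50 to 0.66, limma, adjusted p = 0.885). The interval leaves room for a difference of up to 1.58-fold upward, and it does not show equal levels. The interval for WRKY53 lay below those for STZ and WRKY6, although no test compared the genes with each other.

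Within each line the same pair of genes passed. In the overexpression line, where 20.1% of probe sets passed, the MV minus NaCl difference of STZ was 2.37 ± 0.34 (5.17-fold, limma, adjusted p = 0.000357) and that of WRKY6 was 2.02 ± 0.27 (4.06-fold, adjusted p = 0.000216). In the wild type, where 20.0% passed, they were 1.91 ± 0.34 for STZ (3.75-fold, adjusted p = 0.00157) and 2.14 ± 0.27 for WRKY6 (4.40-fold, adjusted p = 0.00013). For both genes the MV and NaCl arrays did not overlap in either line. With 2 arrays on each side this also occurred without a call, as for STZ in NaCl against water in the overexpression line (limma, adjusted p = 0.373). The share of all probe sets free of overlap was not counted. WRKY53 had 0.23 ± 0.38 in the overexpression line (limma, adjusted p = 0.756) and -0.07 ± 0.38 in the wild type (adjusted p = 0.937). Over both lines the sign of WRKY53 turned without MV replicate 2 (-0.23) or NaCl replicate 2 (-0.11) of the overexpression line, and its value was 0.39 without MV replicate 1 of that line.

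Set against water, MV raised STZ by 1.90 ± 0.24 over both lines (3.73-fold, limma, adjusted p = 0.000369) and WRKY6 by 1.70 ± 0.19 (3.26-fold, adjusted p = 0.000145). WRKY53 rose by 1.1 ± 0.27 (2.15-fold, limma, adjusted p = 0.0245). In this comparison 7.48% of probe sets passed, so a call was rarer than between MV and NaCl. The comparisons of MV and of NaCl with water use the same water arrays and are not independent of each other.

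Line by line, STZ rose under MV by 1.83 ± 0.34 in the overexpression line (limma, adjusted p = 0.0184) and by 1.97 ± 0.34 in the wild type (adjusted p = 0.00598). WRKY6 rose by 1.45 ± 0.27 in the overexpression line (adjusted p = 0.0193) and by 1.96 ± 0.27 in the wild type (adjusted p = 0.0014). WRKY53 passed in neither line, at 0.75 ± 0.38 in the overexpression line (adjusted p = 0.593) and 1.45 ± 0.38 in the wild type (adjusted p = 0.0504). In the wild type it did pass under 9 of 11 other settings, but not with any 1 of the 4 compared arrays left out (1.24 to 1.67). In these comparisons 1.46% of probe sets passed in the overexpression line and 4.33% in the wild type. Several of these calls were lost when 1 array was left out, with smaller shifts in size: the values ran from 1.59 to 2.07 for STZ and from 1.29 to 1.61 for WRKY6 in the overexpression line, and from 1.93 to 2.01 for STZ in the wild type. That of STZ in the overexpression line was lost without water replicate 1, water replicate 2 or MV replicate 2 (largest adjusted p = 0.212), and in the wild type without water replicate 2 or MV replicate 1 (0.0572). That of WRKY6 in the overexpression line was lost without any 1 of its 4 arrays (adjusted p 0.0665 to 0.229). The call of WRKY53 over both lines was lost without any 1 of 6 of the 8 arrays, the exceptions being water replicate 2 of the wild type and MV replicate 1 of the overexpression line (largest adjusted p = 0.0977).

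NaCl against water gave calls for WRKY53 but none for STZ or WRKY6, although STZ takes its name from salt tolerance. WRKY53 rose by 1.03 ± 0.27 over both lines (2.04-fold, limma, adjusted p = 0.0123). STZ stood at -0.24 ± 0.24 (adjusted p = 0.569) and WRKY6 at -0.37 ± 0.19 (adjusted p = 0.200). In this comparison 25.5% of probe sets passed, so a gene without a call was the more common case. Without water replicate 1 of the wild type or NaCl replicate 1 of the overexpression line, the WRKY53 call was lost (largest adjusted p = 0.0592).

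In the wild type, where 14.1% of probe sets passed, WRKY53 rose under NaCl by 1.53 ± 0.38 (2.88-fold, limma, adjusted p = 0.0164), a call that was lost without water replicate 1 or either NaCl array (largest adjusted p = 0.136). In the overexpression line, where 15.7% passed, it stood at 0.53 ± 0.38 (adjusted p = 0.441). STZ stood at -0.54 ± 0.34 in the overexpression line (adjusted p = 0.373) and 0.06 ± 0.34 in the wild type (adjusted p = 0.962). WRKY6 stood at -0.57 ± 0.27 (adjusted p = 0.206) and -0.18 ± 0.27 (adjusted p = 0.810) in the same order of lines. With the replicate number as a block, WRKY6 passed as lower under NaCl in the overexpression line (adjusted p = 0.0484) and over both lines (adjusted p = 0.0477).

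IAA against water gave no call for any of the 3 genes. The differences over both lines were -0.59 ± 0.24 for STZ (limma, adjusted p = 0.345), -0.32 ± 0.19 for WRKY6 (adjusted p = 0.525) and -0.03 ± 0.27 for WRKY53 (adjusted p = 0.980). In the wild type the STZ arrays under IAA lay below those in water, at -0.80 ± 0.34 (unadjusted p = 0.0387, adjusted p = 0.393, limma). Calls were rare in this comparison, at 0.620% of probe sets over both lines, 0.215% in the overexpression line and 0.207% in the wild type. Without IAA replicate 2 of both lines, the arrays with the raised actin 3′ to 5′ difference, the values were -0.13 for STZ, -0.02 for WRKY6 and -0.30 for WRKY53. The part of RNA integrity in the IAA values was not tested. STZ passed over both lines, at an adjusted p of 0.0443, only when replicate 1 of the overexpression line was the array left out.

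**Figure D2:**
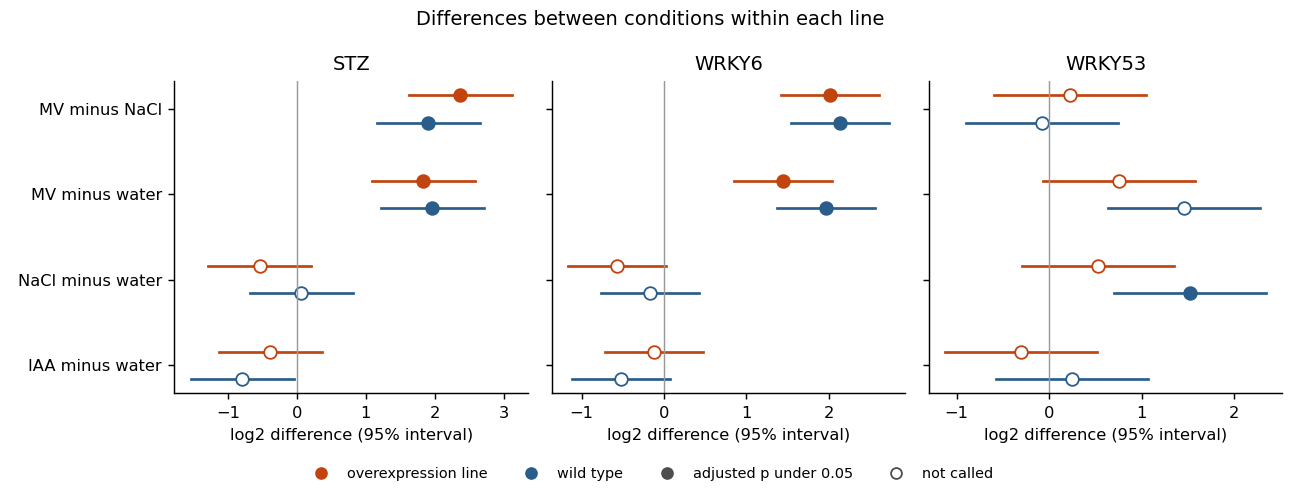
Log2 differences between conditions (horizontal axis) within the overexpression line (above) and the wild type (below), with 95% intervals from limma, for STZ, WRKY6 and WRKY53. The horizontal scale differs between panels. Filled points passed an adjusted p of 0.05, as STZ and WRKY6 did for MV against both NaCl and water, and WRKY53 only for NaCl against water in the wild type.

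The overexpression line was compared with the wild type in each condition. No probe set passed in any of these comparisons (0%), nor in the 4 tests of whether the lines' responses differed (0%), with limma after adjustment. At an unadjusted p under 0.05, 255 probe sets were found in water, 1666 under IAA, 1018 under NaCl, 1212 under MV and 1331 with the 4 conditions averaged. The tests of the responses gave 491 to 1334. With no true difference, a share of about 0.05 of the 22746 probe sets would fall under that threshold. The counts in water and under NaCl lie below that share, and those under IAA, under MV and with the 4 conditions averaged lie above it. Of the tests of the responses, only that of MV minus NaCl, with 1334, lies above it. Since no probe set passed after adjustment, these counts single out no probe set as different between the lines. The line minus wild type difference of STZ was -0.06 ± 0.34 under MV, -0.52 ± 0.34 under NaCl, 0.49 ± 0.34 under IAA and 0.08 ± 0.34 in water. That of WRKY6 was -0.31 ± 0.27 under MV, -0.20 ± 0.27 under NaCl, 0.61 ± 0.27 under IAA and 0.20 ± 0.27 in water. For both genes the overexpression line had the lower mean under MV and NaCl and the higher mean under IAA and in water, with no call (limma, adjusted p at least 0.677).

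WRKY53 had a lower mean in the overexpression line under MV, NaCl and IAA, and a higher one in water, at -0.38 ± 0.38 under IAA (adjusted p = 0.832) and 0.17 ± 0.38 in water (adjusted p = 1.0). It averaged 4.19 in the overexpression line and 5.02 in the wild type under NaCl. These arrays did not overlap, but the share of all probe sets free of overlap was not counted. The difference between the lines under NaCl was -0.83 ± 0.38, the 31st largest decrease of 22746 probe sets by size but only place 967 by p. Its unadjusted p in limma was 0.0474, with an adjusted p of 1.0. Under MV it averaged 4.42 in the overexpression line and 4.95 in the wild type, a difference of -0.53 ± 0.38 (adjusted p = 0.992) whose arrays overlapped. Over the mean of the 4 conditions WRKY53 stood at -0.40 ± 0.19 (95% interval -0.81 to 0.01, adjusted p = 0.871).

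The responses themselves were also compared. The NaCl response of WRKY53 in the overexpression line minus that in the wild type was -1.0 ± 0.54 (95% interval -2.16 to 0.16, limma, unadjusted p = 0.0854, adjusted p = 1.0), so the call in the wild type alone does not show that the lines differ. The MV minus NaCl difference changed between the lines by 0.46 ± 0.49 for STZ (adjusted p = 0.925), -0.12 ± 0.39 for WRKY6 (adjusted p = 0.983) and 0.30 ± 0.54 for WRKY53 (adjusted p = 0.970). The 95% intervals ran from -0.59 to 1.52 for STZ, from -0.96 to 0.72 for WRKY6 and from -0.86 to 1.46 for WRKY53 on the log2 scale, and differences of those sizes are not excluded.

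WRKY6 and WRKY53 belong to a family of 72 named WRKY genes in the RefSeq gene table, of which 7 have a named probe set here. Over both lines, MV minus NaCl gave 1 higher gene (WRKY6) and 2 lower genes (ZAP1 and WRKY20) of 7, beside 30.2% of all probe sets called, and a median of 0.08 against -0.01 for all. MV minus water gave 3 higher (WRKY6, WRKY22 and WRKY53) and 1 lower (WRKY47), beside 7.48% called and with a median of 0.16 against -0.02. NaCl minus water gave 3 higher (WRKY53, ZAP1 and WRKY20) and 1 lower (WRKY47), beside 25.5% called and with a median of 0.59 against 0.0015. IAA gave no call in the family. WRKY6 and WRKY53 are among the 7 and were chosen with earlier results of these data known. The counts therefore describe these genes and test nothing about the family.

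The WRKY genes that passed did so in different ways. ZAP1, which is WRKY1 and was among the first WRKY proteins described in Arabidopsis, had 4.58 and 4.50 in the overexpression line under MV, against 6.06 and 6.06 under NaCl. In the wild type it had 4.42 and 4.49 under MV, against 5.79 and 5.94 under NaCl. Its MV minus NaCl difference was -1.47 ± 0.13 (limma, adjusted p = 3.15e-06) and it rose under NaCl against water by 1.31 ± 0.13 (2.48-fold, adjusted p = 1.17e-05), while MV against water gave -0.16 ± 0.13 (adjusted p = 0.628). ZAP1 was thus high under NaCl, where WRKY6 was not, with tight replicates in every NaCl and MV group. WRKY20 had the same signs with smaller sizes, at -0.78 ± 0.14 for MV minus NaCl (adjusted p = 0.000986) and 0.59 ± 0.14 for NaCl minus water (adjusted p = 0.00759).

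WRKY22, a defence factor downstream of flagellin signalling, averaged 7.20 ± 0.33 under MV, 6.66 ± 0.37 under NaCl and 5.95 ± 0.29 in water (SD, 4 arrays each). It rose under MV by 1.25 ± 0.25 against water (2.38-fold, limma, adjusted p = 0.00858) and stood at 0.71 ± 0.25 under NaCl (adjusted p = 0.0576). WRKY47 was the one member that fell under both, by 1.0 ± 0.16 under MV (adjusted p = 0.00187) and by 0.75 ± 0.16 under NaCl (adjusted p = 0.00377). WRKY42, a close relative of WRKY6, had 1.02 to 1.70 on all arrays, close to the 0.677 to 0.986 of the bacterial trp control probe set, and gave no call.

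**Figure D3:**
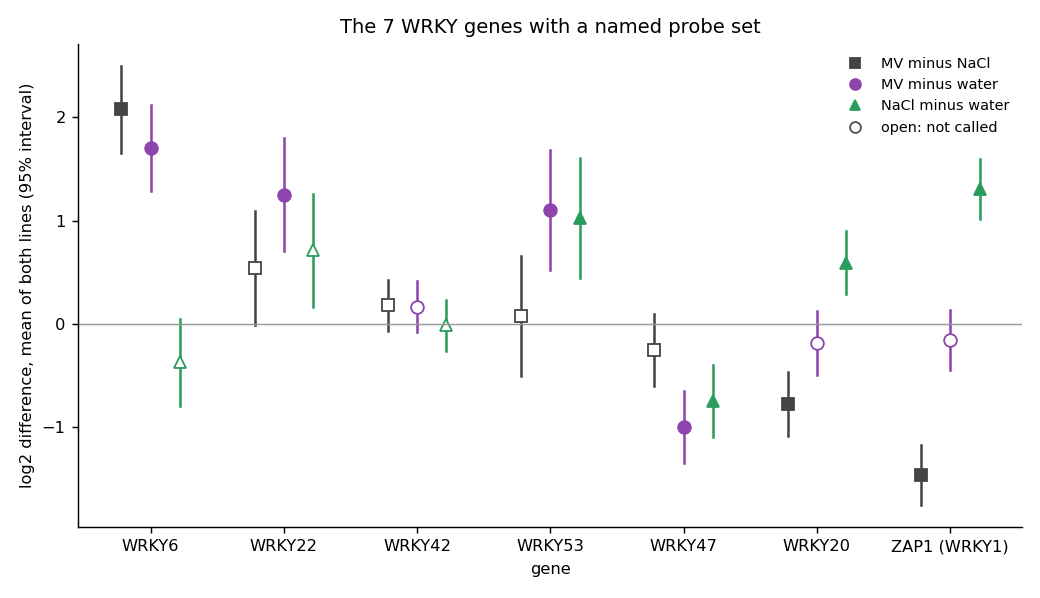
Log2 differences over both lines (vertical axis, 95% intervals from limma) for the 7 WRKY genes with a named probe set, for MV minus NaCl, MV minus water and NaCl minus water. Filled symbols passed an adjusted p of 0.05. WRKY6 is high under MV, ZAP1 and WRKY20 under NaCl, WRKY53 under both, and WRKY47 is low under both.

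STZ was the 1 gene of 9 ZAT and AZF zinc finger genes with a named probe set, so its close relatives give no comparison here. None of 20 oxidative stress signalling genes on the list had a named probe set of its own. Of 16 senescence and defence genes linked to WRKY factors, SAG101 alone had a named probe set. The 8730 unnamed probe sets and the 503 naming several genes were not searched. The other listed genes may therefore still be on the array. SAG101, an acyl hydrolase-like protein that works with EDS1 in immunity, had 4.99 and 4.81 in the overexpression line under MV, against 3.41 and 3.31 under NaCl. The wild type had 5.61 and 5.33 under MV, against 3.05 and 2.86 under NaCl. Its MV minus NaCl difference of 2.02 ± 0.14 (limma, adjusted p = 2.62e-07) was close in size to those of STZ and WRKY6, but NaCl against water was -1.60 ± 0.14 (adjusted p = 2.68e-06) and MV against water 0.43 ± 0.14 (adjusted p = 0.0835). SAG101 therefore fell under NaCl, while STZ and WRKY6 rose under MV.

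Of 14 cold and water deficit genes, 3 had a named probe set. In MV minus NaCl, 2 of these passed as lower and none as higher, beside 30.2% of all probe sets called. COR15B, a chloroplast protein of the late embryogenesis abundant class, stood at -1.81 ± 0.29 (limma, adjusted p = 0.00038) and rose under NaCl against water by 1.1 ± 0.29 (adjusted p = 0.0137). COR15A, its neighbouring copy, stood at -1.03 ± 0.23 for MV minus NaCl (adjusted p = 0.00359). It fell under MV against water by 1.1 ± 0.23 (adjusted p = 0.00965), while NaCl gave -0.07 ± 0.23 (adjusted p = 0.888). The dehydrin COR47 gave -0.11 ± 0.18 (adjusted p = 0.740).

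The bulk seedling values cannot tell fewer cells of a type from less RNA per cell. Of the 3 guard cell lineage genes with a named probe set, 2 were lower in MV minus NaCl over both lines. Of 3 such root genes, 1 was higher. In this comparison 30.2% of all probe sets were called. FMA, a guard cell regulator also written FAMA, stood at -0.91 ± 0.25 (limma, adjusted p = 0.014), with -0.28 ± 0.35 in the overexpression line (adjusted p = 0.66) and -1.54 ± 0.35 in the wild type (adjusted p = 0.00772). MUTE stood at -0.46 ± 0.12 (adjusted p = 0.00861), with 0.908 to 0.979 under MV, within the range of the trp control. EXPA7, a root hair expansin, stood at 0.45 ± 0.13 (limma, adjusted p = 0.0208). It had 0.77 ± 0.19 in the overexpression line (adjusted p = 0.0109) and 0.13 ± 0.19 in the wild type (adjusted p = 0.731). Its signal was low, at 1.14 to 2.30 over the 16 arrays, against 0.677 to 0.986 for the trp control. SPCH, EXPA18 and PYK10 gave no call, at -0.16, 0.03 and -0.15. None of these guard cell and root genes passed the limma test of whether the MV minus NaCl difference changed between the lines. A call in 1 line alone therefore does not show that the lines differ. The part of tissue composition in the STZ and WRKY values was not tested. In the RefSeq gene table the span of WRKY53 overlaps that of 3xHMG-box2, whose own probe set averaged 5.37 under MV, 5.26 under NaCl and 5.51 in water, with no call between them. No such overlap was found for STZ or WRKY6.

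The probe sets with the pattern most like each gene were found from the root mean square (RMS) difference between log2 profiles over the 16 arrays, each centred on its own mean. For STZ the closest of 13512 named probe sets was AT4G29780 at 0.31, followed by WRKY6 at 0.33, AT4G34150 at 0.38, AT5G14730 at 0.40 and AT4G27652 at 0.44. The median over all of them was 1.07. For WRKY6 they were AT4G18950 at 0.30, AT4G29780 at 0.31, ATMDAR2 at 0.31, AT1G50740 at 0.32 and STZ at 0.33, with a median of 0.94. ATMDAR2 is a monodehydroascorbate reductase, an enzyme that regenerates ascorbate. STZ and WRKY6 were thus each among the 5 nearest of the other, at places 2 and 5, but took places 10 and 13 without the 4 IAA arrays.

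WRKY53 was at 0.90 from STZ and 0.89 from WRKY6. From WRKY53 both distances exceed its own median of 0.73, while it took place 767 of 13512 from STZ and place 3643 from WRKY6, below the medians of those genes. Its nearest probe sets were AT5G39020 at 0.23, AT4G11000 at 0.30, AT3G53650 at 0.38, PUB24, a plant U-box protein, at 0.38, and CW9 at 0.38. PUB24 averaged 1.52 above water under MV and 0.90 above it under NaCl, and CW9 0.89 and 1.36. The measure favours probe sets of similar amplitude and describes these 16 arrays only. Without the 4 IAA arrays, 0 of the 5 for STZ, 3 for WRKY6 and 3 for WRKY53 were still among the nearest 5.

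**Figure D4:**
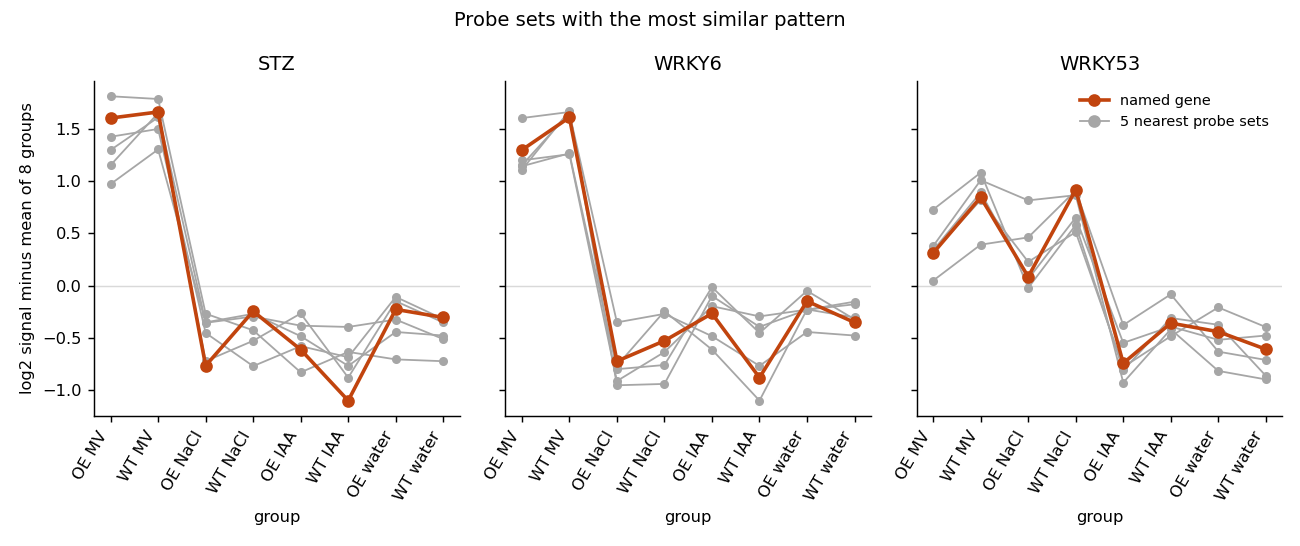
Centred log2 signal (vertical axis) of STZ, WRKY6 and WRKY53 (red) and of the 5 named probe sets with the smallest RMS difference to each (grey), as means of 2 arrays in each of the 8 groups. OE is the overexpression line and WT the wild type. The profiles near STZ and WRKY6 peak in the MV groups, and those near WRKY53 lie above their mean in the wild type under both MV and NaCl.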

How the data were processed

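The authors deposited 1 log2 value per probe set for each of 16 ATH1 arrays. RMA, which normalizes arrays to each other by quantiles, comes from the submitters' processing notes, which give no version, software or probe set definition here. Of 22810 probe sets, 64 controls were left out and 22746 tested. The platform annotation gave 13513 of these 1 gene and 503 several, and 8730 were unnamed here. Of the 13513, 13436 matched the RefSeq gene table of TAIR10.1, which served for names and neighbours only.

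The 8 group means were fitted with limma 3.58.1 in R 4.3.3 (lmFit, eBayes, 8 residual and 4.52 prior degrees of freedom), with 21 two-sided comparisons and Benjamini-Hochberg adjustment over all probe sets of a comparison at 0.05. The fit was tested on simulated data. Precision is set by the 2 arrays of a group.

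The members and lists were chosen with earlier results of these data known. The rule for named genes took the 3 members and, from each list, up to 4 genes each way whose arrays did not overlap, or the 2 with the smallest p, and the 5 nearest by pattern. WRKY42, COR47 and 3xHMG-box2 fall outside it and were chosen after their values were seen. The marker genes also fall outside it. They come from a list of their own, and every one with a named probe set is given. Alternatives were other scalings, filters, models and arrays left out. Promoter and protein sequences and motif searches were not used here.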

Additional observations from a re-analysis of the deposited data

How the results depend on the processing

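STZ and WRKY6 kept their direction and their call for MV minus NaCl, in each line and over both, in all 11 other settings (quantile normalization, median centring, an intensity trend, array weights, the replicate block, brighter probe sets, no cross-hybridization suffix, fewer arrays and a 2-fold minimum) and with each array left out. Over both lines the values without 1 array ran from 2.02 to 2.26 for STZ and from 1.95 to 2.21 for WRKY6. WRKY53 had no settled sign for MV minus NaCl: the values without 1 array ran from -0.23 to 0.39 over both lines and from -0.39 to 0.84 in the overexpression line, and median centring gave 0.0719 in the wild type. Over all member results and settings, 982 were unchanged in direction and call, 20 lost the call, 12 gained one and 42 changed sign, the last in uncalled results. The cause was not tested. With the median centred, the median of all probe sets in wild type MV minus NaCl was 0.17, against 0.02, and the share of higher calls was 56.3%, against 42.0%. WRKY53 passed for MV against water in the wild type under 9 of 11 alternatives (lowest adjusted p = 0.0148), but not with any 1 of the 4 compared arrays left out. Without the second IAA array of both lines, uncalled values changed sign to -0.23 (WRKY53, IAA minus water, wild type), 0.25 and 0.20 (STZ and WRKY6, overexpression line), 0.0319 (WRKY53, lines under IAA) and 0.0803 (STZ, lines over 4 conditions). Other uncalled ranges without 1 array that crossed 0 were, for treatments against water, -0.18 to 0.30 (STZ, NaCl, wild type), -0.44 to 0.0914 (WRKY6, NaCl, wild type), -0.23 to 0.73 (WRKY53, IAA, wild type), -1.01 to 0.25 (STZ, IAA, overexpression line), -0.44 to 0.20 (WRKY6, IAA, overexpression line) and -0.26 to 0.21 (WRKY53, IAA, both). For the lines they were -0.0462 to 0.38 (WRKY53, water), -0.14 to 1.12 (STZ, IAA), -0.86 to 0.0935 (WRKY53, IAA), -0.46 to 0.0717 (WRKY6, NaCl), -0.30 to 0.18 (STZ, MV), -1.15 to 0.0814 (WRKY53, MV), -0.16 to 0.15 (STZ, 4 conditions) and -0.0024 to 0.16 (WRKY6, 4 conditions). For differences between responses they were -0.38 to 0.11 (STZ, MV), -0.22 to 1.04 (STZ, IAA), -0.38 to 0.15 (WRKY6, MV minus NaCl) and -0.32 to 0.91 (WRKY53, MV minus NaCl). A 2-fold minimum left 2616 of 4572 MV minus NaCl calls in the overexpression line, 2733 of 4560 in the wild type and 2685 of 6865 over both, and 1 of 2 lower WRKY genes. Without 1 array the calls ran from 2874 to 3368 in the overexpression line and from 2801 to 3596 in the wild type. Other counts of calls that moved by over 1.5 times were, with array weights, 958 against 331 (MV, overexpression line), 2807 against 1701 (MV, both), 5095 against 3211 (NaCl, wild type) and 77 against 49 (IAA, overexpression line), without the IAA arrays 1489 against 984 (MV, wild type), and on the compared arrays only 0 against 47 (IAA, wild type) and 62 against 141 (IAA, both). Brighter probe sets gave 27 against 49 (IAA, overexpression line). The lines under MV gave 9 calls with median centring and 1 each with the trend and the replicate block, none of them a member. Same-number deviations correlated at -0.108 to 0.363 over 28 group pairs (median 0.067, 9 pairs over 0.1), which does not establish that the numbers pair the arrays, so they were treated as unpaired. The block gave 6974 calls for MV minus NaCl over both lines against 6865. The mean over several probe sets of a gene was not run, since each listed gene has 1, and the motif search was not run.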
